A study of Homo sapiens with 12 samples.

Results

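The loci described here were enriched with dSpCas9 over the size-matched input in both the V5 and the FLAG experiments, and over the empty vector immunoprecipitation (IP) in the V5 experiment, but had no reproducible peak over the empty vector IP in the FLAG experiment. They are called V5-only loci. Peaks of the 4 deposited lists that lay within 10 nt of each other on the same strand were merged into 8501 loci. Of these, 2693 held a peak over both size-matched inputs, and 650 of those met the rule, in 507 genes. The members were therefore selected on the measured enrichments, and counts from the rule are given only as background. Among the 2693 loci, 47.4% held a peak of V5 over its empty vector control, 36.8% held one of FLAG over its own, and 24.1% the former without the latter, which is the rule itself.

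The data were eCLIP, in which proteins are cross-linked to RNA in living cells with UV light, 1 protein is recovered with an antibody, and the attached RNA is sequenced. HEK 293T cells, a readily transfected human embryonic kidney line carrying SV40 large T antigen, were transiently transfected with V5-dSpCas9, with 3xFLAG-dSpCas9 or with the pCDNA3.1(-) empty vector. dSpCas9 is the Streptococcus pyogenes Cas9 without nuclease activity; here it was cytoplasmic and no guide RNA was supplied. The 12 libraries comprised, per antibody, 2 of the IP, 2 of the size-matched input and 2 of the IP from empty vector cells. Cells received 400 mJ/cm2 of UV (2 exposures in the sample labels), and the membrane was cut from 115 kDa up. The size-matched input was RNA from the same membrane range without IP. It came from dSpCas9-expressing cells, whereas the empty vector IP had the antibody but no tagged protein.

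Cas9 normally holds a guide RNA, whose repeat-derived part folds into stems and loops that the protein recognises. Without a guide, the protein can contact other cellular RNA. An mRNA consists of a 5′ untranslated region (UTR), often rich in G and C, through which the small ribosomal subunit scans, a coding sequence (CDS) and a 3′ UTR, where stability and translation are often regulated. A peak over the input shows that RNA was recovered beyond its abundance in the membrane range, and a peak over the empty vector IP shows that it was recovered beyond what the antibody and the beads hold without the tagged protein.

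Sequences of several V5-only loci are shown first, because they carry the features described afterwards. All are written 5′ to 3′ on the RNA strand, as hg38 DNA letters, and capitals mark each called GU-loop:5nt-stem, which is a GU (written GT) whose U had a predicted pairing probability below 0.7, together with the next 5 bases, all predicted to pair with a probability above 0.5. Several of the members highest over input lay in tRNA genes. Shown whole are those in TRU-TCA1-1, the selenocysteine tRNA gene (chr19:45478598-45478688, minus strand), in TRR-TCG1-1, an arginine tRNA gene within an exon of POLG-DT (chr15:89335099-89335149, plus strand), and in TRR-TCT1-1, an arginine tRNA gene within an exon of the lncRNA ENSG00000260464 (chr1:93847618-93847661, plus strand).
TRU-TCA1-1: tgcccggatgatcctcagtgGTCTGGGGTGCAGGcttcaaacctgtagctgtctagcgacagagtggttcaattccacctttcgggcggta
TRR-TCG1-1: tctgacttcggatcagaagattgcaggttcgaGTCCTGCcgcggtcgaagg
TRR-TCT1-1: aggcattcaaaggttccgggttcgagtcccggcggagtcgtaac

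Members in 5′ UTRs made up a larger share than in the other classes of loci, and stretches of at most 30 nt around the first called motif are shown for SNRPD1, a core protein of spliceosomal snRNPs (chr18:21612291-21612320, plus strand), RNF11, a RING finger protein (chr1:51236606-51236635, plus strand), TRIM28, a transcriptional corepressor (chr19:58544483-58544512, plus strand), and ATF3, a stress-induced transcription factor (chr1:212608845-212608874, plus strand). The loci of RPLP0 (chr12:120201083-120201111, minus strand) and RPL14 (chr3:40457335-40457363, plus strand), which encode proteins of the large ribosomal subunit, are whole; neither held a called motif. Regions were assigned at the locus midpoint. The SNRPD1 locus begins upstream of the annotated mRNA start, and the capitals shown for it lie there, outside the annotated 5′ UTR. The first bases of the RPL14 locus also lie upstream of its annotated mRNA start.
SNRPD1: gcgcctgcaGTGCTCCgcgcgctcttgacg
RNF11: tcggcggcaccGTGGGGCggtggagtcgcc
TRIM28: cggttgtgcttGTGCTTGTGGCGCgtggtg
ATF3: gtgagtcctcgGTGCTCGcccgccggccag
RPLP0: ccttctctcgccaggcgtcctcgtggaag
RPL14: cttccttctcgcctaacgccgccaacatg

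Most members lay in coding sequences. SRM, spermidine synthase (chr1:11055890-11055926, minus strand), had the highest V5 enrichment over the empty vector IP, and EEF2, the elongation factor that moves the ribosome along the mRNA, had the most members; its locus at chr19:3982282-3982381 (minus strand) is shown whole. DFFA, the inhibitor of the caspase-activated DNase, is shown around the motif (chr1:10472457-10472486, minus strand). In the 3′ UTR, the stretches are from TRIB3, a stress-induced pseudokinase (chr20:396805-396834, plus strand), and SLC66A2 (chr18:79902701-79902730, minus strand). The last capitals of the TRIB3 stretch are the beginning of a further call that runs past the end of the stretch. Where calls abut, as in TRU-TCA1-1, or overlap, as in TRIM28, their capitals run together.
SRM: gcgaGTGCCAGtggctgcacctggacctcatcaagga
EEF2: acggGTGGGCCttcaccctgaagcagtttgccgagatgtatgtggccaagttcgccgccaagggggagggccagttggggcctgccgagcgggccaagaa
DFFA: aaggtgggcagGTCCCACcttGTGGAGGat
TRIB3: ggcagaagcctGTGTGGAgtgtgctGTGTA
SLC66A2: cccttccgcagGTGGAGGggccgcttcccg

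The deposited value of a peak is the log2 of the geometric mean, over both replicates, of IP reads over control reads, with 1 value per peak and no value per replicate, so none of the enrichments below has an error. A locus was given its highest value in each list. Over the V5 input, members ranged from 3.01 to 8.56 with a median of 3.80. Over the FLAG input they ranged from 3.00 to 9.52 with a median of 3.58, and over the V5 empty vector IP from 3.00 to 6.16 with a median of 3.59. The lowest values are set by the lists, which start at a log2 of 3. The V5 values over input and over the empty vector IP share the same IP libraries. The median −log10 p was 15.8 over the V5 input, 16.9 over the FLAG input and 6.14 over the V5 empty vector IP. In the last, 410 of the 650 members had a −log10 p of 5 or more and 154 a log2 of 4 or more.

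The members were lower than the 626 loci with a peak in all 4 lists, whose medians were 4.30 over the V5 input, 4.38 over the FLAG input, 3.99 over the V5 empty vector IP and 3.72 over the FLAG empty vector IP. The V5 value over input exceeded the FLAG value in 414 members, or 63.7%. This share was 45.1% among loci in all 4 lists, 56.0% among the 1052 loci with no peak over either empty vector IP, and 35.6% among the 365 loci with a peak over the FLAG empty vector IP only (FLAG-only loci). These values chose the classes or share IP libraries with those that did, and they are given without a test. Across the 650 members, V5 and FLAG enrichment over input had a Pearson r of 0.545, which fell to 0.303 across the 633 members in mRNA regions. The points share their libraries and the lower threshold, and loci of 1 gene share a transcript.

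**Figure D1:**
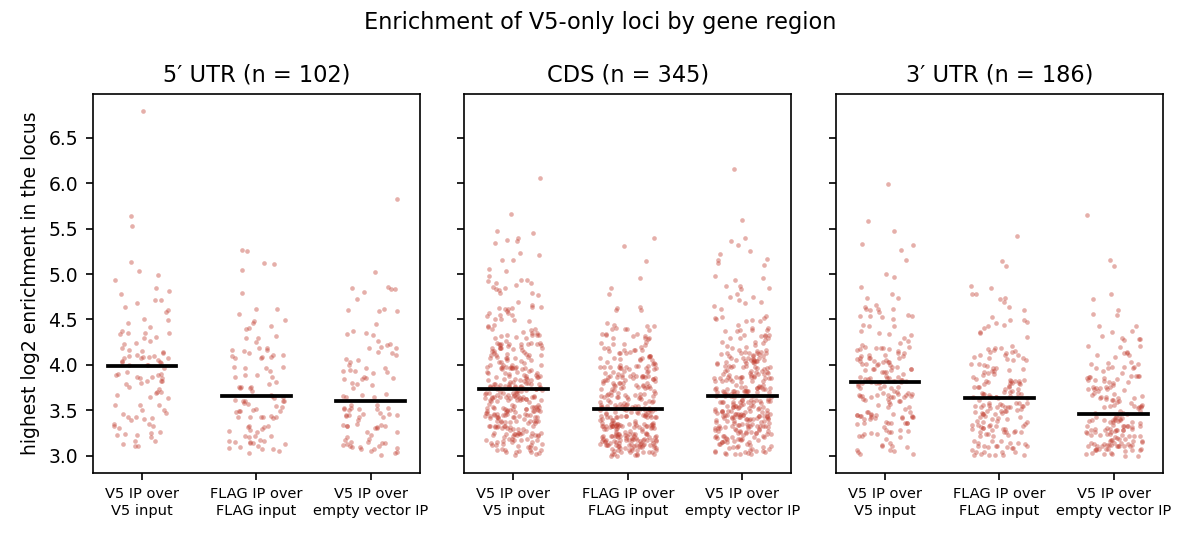
Highest log2 enrichment of each V5-only locus (points) in the V5 IP over its input, the FLAG IP over its input and the V5 IP over the empty vector IP, for 102 loci in 5′ UTRs, 345 in coding sequences and 186 in 3′ UTRs; black lines are medians and the lists start at 3. The 5′ UTR loci had a median of 3.99 over the V5 input against 3.66 over the FLAG input, and the 3′ UTR loci had the lowest median over the empty vector IP, 3.46.

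Absence from the FLAG empty vector list is not a measured low level, since the lists hold only peaks that passed the thresholds. The members just inside the rule were in SFXN1, LUC7L2 and HMGN1, with V5 values over the empty vector IP of 3.00, 3.00 and 3.01. Just outside it were loci with peaks in all 4 lists in GALNT2, COG2 and CDK4, whose FLAG values over the empty vector IP were 3.00, 3.01 and 3.01. The rule and the merging leave no member within 10 nt of a FLAG empty vector peak on the same strand. Within 100 nt, 25 members had such a peak, the nearest 19 nt away in GNA11, 26 nt in ATP8B2 and 28 nt in AP3D1. This count was not compared with other classes of loci. On the level of genes, 265 members, in 189 genes, lay in a gene that carried a FLAG empty vector peak elsewhere, and 318 genes had none. These counts were not compared with other classes of loci either, so they cannot be read as high or low. A locus in all 4 lists was present in 121 of the 507 genes (23.9%), which is 27.3% of the 443 genes with such a locus. FLAG-only loci were present in 56 of the member genes, 11.05% of those and 17.45% of the 321 genes with a FLAG-only locus. For comparison, 32.1% of all 1581 genes with a locus over both inputs held a member. The 27.3% and the 17.45% lay below this share, but the shares are not alike. A gene with a locus in all 4 lists or a FLAG-only locus needs a further locus to hold a member. Among all 1581 genes, the only locus of a gene can be the member. The differences were therefore not read as a result, and they were not tested.

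Within most members peaks of the 3 lists overlapped. The merging within 10 nt already places them together, and both V5 lists share the V5 IP libraries. The overlap is therefore given as description only. In 633 of 650 loci at least 1 nt lay in a peak of each of the 3 lists, and at the median 66.8% of the locus did. The median locus was 118 nt long, with a range of 9 to 478 nt. An end within 3 nt of an exon junction was found for 252 of the 633 members in mRNA regions, 39.8% (95% Wilson interval 36.1 to 43.7%). The share was 36.5% (32.8 to 40.4%) for loci in all 4 lists, an interval that overlaps that of the members, 31.9% (27.2 to 37.0%) for FLAG-only loci and 26.5% (23.9 to 29.3%) for loci with no empty vector peak, and these shares were not tested. The peaks were placed on the genome, so RNA that continued across a junction appears as separate loci: 38 pairs of neighbouring members, made of 74 loci, continued into each other within 3 nt in the spliced mRNA.

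By gene region, 102 members (15.7%, Wilson interval 13.1 to 18.7%) had their midpoint in a 5′ UTR, 345 (53.1%, 49.2 to 56.9%) in a coding sequence and 186 (28.6%, 25.3 to 32.2%) in a 3′ UTR. The other 17 lay in introns, noncoding exons or between genes. Gene region played no part in the rule. Compared with loci in all 4 lists, V5-only loci lay more often in 5′ UTRs (15.7 against 5.75%) and coding sequences (53.1 against 45.9%), and less often in 3′ UTRs (28.6 against 46.8%). Fisher's exact test, two-sided and adjusted over the 9 comparisons by Benjamini-Hochberg, gave p = 1.45e-08, 0.0101 and 7.47e-11 for these. Against loci with no empty vector peak, 9.98% of which lay in 5′ UTRs, 40.8% in coding sequences and 44.3% in 3′ UTRs, the adjusted p of Fisher's exact test was 0.000647, 1.33e-06 and 2.01e-10. FLAG-only loci differed most, with 2.47% in 5′ UTRs, 39.7% in coding sequences and 53.2% in 3′ UTRs (adjusted p of Fisher's exact test 8.25e-12, 6.25e-05 and 1.34e-13). Loci of 1 gene are not independent, and the intervals and p-values cover counting error only.

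**Figure D2:**
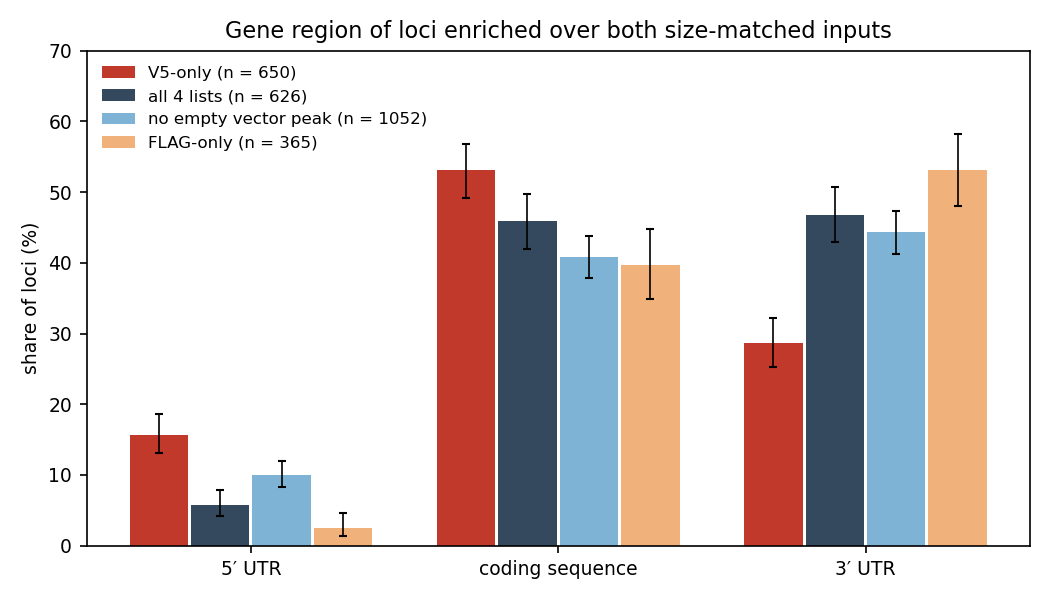
Share of loci (%) whose midpoint lay in the 5′ UTR, the coding sequence or the 3′ UTR, for V5-only loci, loci in all 4 lists, loci with no empty vector peak and FLAG-only loci; bars start at 0 and error bars are 95% Wilson intervals. V5-only loci had the highest share in 5′ UTRs, 15.7%, and in coding sequences, 53.1%, and the lowest in 3′ UTRs, 28.6%.

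Gene regions also differed between the complete empty vector lists. The classes are cut from these lists and share their peaks, so this is not a separate observation. In the V5 list of 3005 such peaks, 9.05% lay in 5′ UTRs, 61.3% in coding sequences and 27.4% in 3′ UTRs. In the FLAG list of 1964, 3.36% lay in 5′ UTRs, 47.5% in coding sequences and 46.0% in 3′ UTRs. Over the size-matched inputs the shares in 5′ UTRs were 8.81% for V5 and 7.68% for FLAG, and those in 3′ UTRs 37.0% and 39.0%. Read by region, 252 loci over both inputs lay in 5′ UTRs; 138 of them (54.8%) held an empty vector peak of V5 and 45 (17.9%) one of FLAG. In 3′ UTRs, 479 of 1139 loci (42.1%) held that of V5 and 487 (42.8%) that of FLAG. In coding sequences the numbers were 632 (52.4%) and 432 (35.8%) of 1206. Tag, antibody and the control libraries differ together between the experiments and cannot be told apart.

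The 102 members in 5′ UTRs came from 101 genes and lay near the beginning of the mRNA. Of these, 94 lay in the first exon, and 60 had their midpoint within 100 nt of the annotated mRNA start. The median midpoint was 84.5 nt from the mRNA start, in 5′ UTRs of a median length of 176 nt. Within the 5′ UTR the median position was 49.7% of its length. The 105 5′ UTR loci with no empty vector peak were placed much the same, with a median of 85.0 nt from the start and 97 in the first exon. The median was 67.0 nt for the 36 such loci in all 4 lists, nearer the start, and 98.0 nt for the 9 FLAG-only loci. These distances were not tested. Loci that touched both the 5′ UTR and the coding sequence, and so the start codon, numbered 89 of all 650 members, or 13.7%. This share was 7.99% among loci in all 4 lists, 6.56% among loci with no empty vector peak and 3.29% among FLAG-only loci.

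HEY1, a transcriptional repressor downstream of Notch, had the highest V5 value over the empty vector IP of the 5′ UTR members, 5.83, with 4.81 over the V5 input and 3.42 over the FLAG input. The SNRPD1 locus began upstream of the annotated mRNA start and touched the 5′ UTR and the coding sequence. It was the highest 5′ UTR member over input, at 6.80 for V5, 4.61 for FLAG and 4.83 over the empty vector IP. SLC25A25, a mitochondrial carrier, had 5.03, 3.71 and 5.02 in the same order. The V5 value over input was above the FLAG value in each of these, as in 63.7% of all members. They were picked on high values that include those of the V5 IP, which favours this order. ACTR1A, a subunit of dynactin, had 4.34, 3.86 and 4.86, and RNF11 had 4.71, 3.75 and 4.85.

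Members in coding sequences numbered 345, from 277 genes, and lay towards the start: 210 of them (60.9%) had their midpoint upstream of the middle of the coding sequence and 81 (23.5%) in the first exon of the mRNA. The share upstream of the middle was 52.3% for loci in all 4 lists, 53.4% for loci with no empty vector peak and 48.3% for FLAG-only loci. The first exon held 11.5%, 17.2% and 4.14% of the coding sequence loci of these classes. Members in 3′ UTRs lay upstream of the middle of the UTR in 118 of 186 loci (63.4%), beside 55.3% for loci in all 4 lists, 65.9% for those with no empty vector peak and 66.5% for FLAG-only loci. These positions were not tested.

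**Figure D3:**
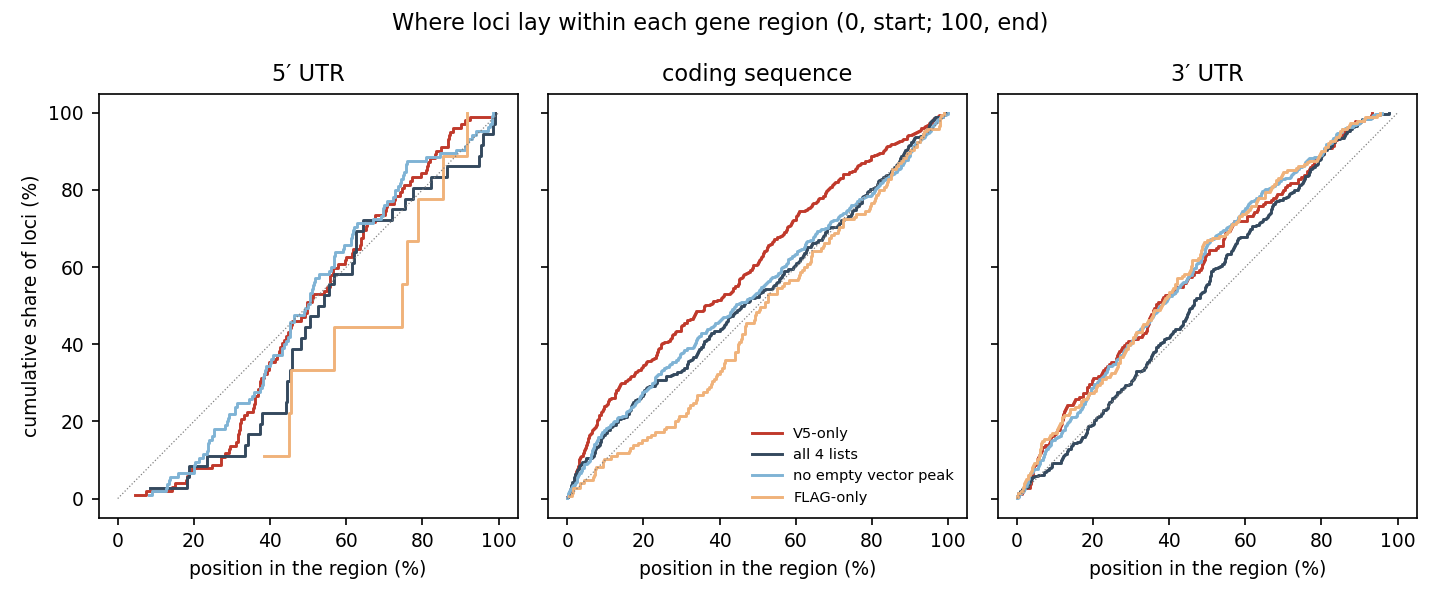
Cumulative share of loci (%) against the position of the locus midpoint within its gene region (0%, start; 100%, end) for the 4 classes of loci; the dotted line is an even spread. In the coding sequence the line of the 345 V5-only loci lies above the others, with 60.9% of loci upstream of the middle, while in the 5′ UTR the FLAG-only line rests on 9 loci.

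SRM had the highest V5 enrichment over the empty vector IP of all members, 6.16, in the coding part of exon 6 of 8, with 4.93 over the V5 input and 3.66 over the FLAG input. The DFFA locus at chr1:10472332-10472523 (minus strand) held the start codon and had 5.60 over the empty vector IP, 4.92 over the V5 input and 4.25 over the FLAG input. A further DFFA member in the coding sequence had 3.99, 3.76 and 3.24 in this order. In both, the empty vector value was above the input values. ARRDC4, which encodes an arrestin domain protein, followed with 5.40 over the empty vector IP and 3.44 and 3.48 over the V5 and FLAG inputs. The V5 value over the empty vector IP was above that over the V5 input in 249 of the 650 members: 45.2% of those in coding sequences, 39.2% in 5′ UTRs and 28.0% in 3′ UTRs.

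EEF2 had 9 members, the most of any gene, all in the coding sequence. They covered positions from 388 to 2534 of an mRNA of 3158 nt, whose coding sequence ends at 2660. Over the V5 input they ranged from 3.66 to 4.32, over the FLAG input from 3.14 to 3.77 and over the V5 empty vector IP from 3.21 to 4.93. The 3 members nearest the start had the highest empty vector values, 4.51, 4.93 and 4.71. Several of the 9 abut at exon junctions, so they do not stand for 9 separate contacts. No EEF2 locus had a FLAG peak over the empty vector IP, although 10 of its 14 loci had a FLAG peak over the input.

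**Figure D4:**
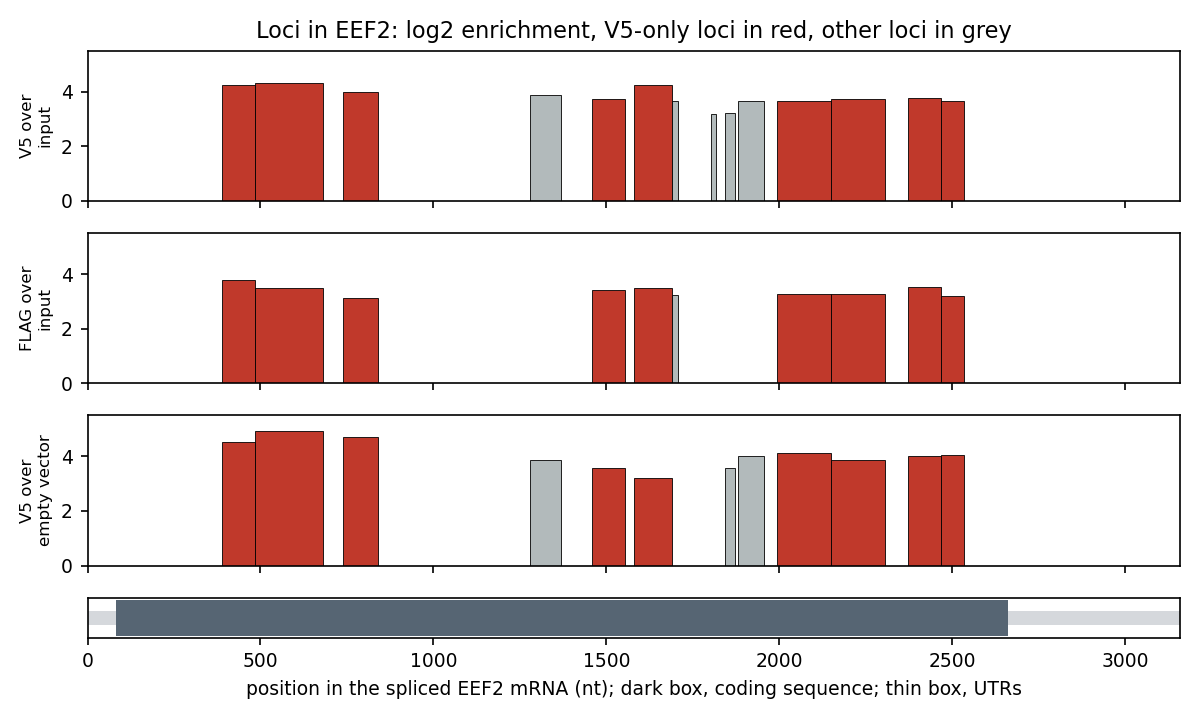
Loci along the spliced EEF2 mRNA (x axis, nt) with the height giving log2 enrichment in the V5 IP over input, the FLAG IP over input and the V5 IP over the empty vector IP; V5-only loci are red, other loci grey, and the dark box below is the coding sequence. The 9 V5-only loci lie between 388 and 2534 nt, none in a UTR, and the highest empty vector value is 4.93.

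The genes with the next most members were SESN2 with 5, EEF1A2 with 4 and SLC7A1 with 4, the last of which was named after its values were seen, since the rule takes 3 genes and it ties with EEF1A2. SESN2, a stress-induced inhibitor of mTORC1 signalling, had 1 member in the coding sequence, with 5.15 over the V5 empty vector IP, 3.89 over the V5 input and 3.20 over the FLAG input. Its 4 members in the 3′ UTR had 3.23 to 4.55 over the empty vector IP. The 4 members of EEF1A2, an elongation factor that brings aminoacyl-tRNA to the ribosome, were coding and had 3.15 to 4.41 over the empty vector IP. The 4 of SLC7A1, a transporter of cationic amino acids, were in the 3′ UTR and had 3.41 to 3.98. In total 401 genes had 1 member, 83 had 2, 19 had 3 and 4 had more.

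In the 3′ UTR, TRIB3 had the highest members' value over the empty vector IP, 5.65, with similar values over the V5 and FLAG inputs, 5.16 and 5.09. SLC66A2 had 5.58 over the V5 input, 4.36 over the FLAG input and 5.15 over the empty vector IP. DNAJB1, a co-chaperone of HSP70, had 4.16, 4.64 and 4.78. SLC7A1 at chr13:29513018-29513259 (minus strand) was one where FLAG was above V5 over input, at 4.47 against 3.24.

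The 17 members outside mRNA regions were few but held 8 of the 10 highest means over input. By overlap with RefSeq (GRCh38.p14; the table gives no strand), 6 of them lay in tRNA genes. Their enrichment was 5.48 to 8.56 over the V5 input and 5.69 to 9.52 over the FLAG input, but only 3.06 to 3.39 over the V5 empty vector IP. TRU-TCA1-1 had 8.56, 9.52 and 3.35, and the locus in POLG-DT had 7.97, 8.69 and 3.22. The locus in ENSG00000260464 had 7.27, 6.51 and 3.39, TRK-CTT1-2, a lysine tRNA gene, 5.55, 7.47 and 3.06, and TRR-TCT4-1, an arginine tRNA gene, 5.52, 6.23 and 3.13. An exon of LIMD1-AS1 that overlaps the arginine tRNA gene TRR-ACG2-1 had 5.48, 5.69 and 3.34. The tRNA members were thus high over both inputs and near the threshold over the empty vector IP. The letters GGTTCGA, found in the T arm of many tRNAs, were present on either strand in 5 of the 17 members outside mRNA regions, in 8 of all 650 and in 22 (0.817%) of the 2693 loci over both inputs. Reads from tRNAs with near-identical copies may be placed at any of them, so the named gene is uncertain. Without a tRNA gene at the site were an intron of PRKCA, protein kinase C alpha, with 6.87, 6.25 and 3.61, and an intron of ENSG00000269237 with 8.03, 8.48 and 3.23.

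V5-only loci were rich in G and C. The median G + C was 62.1% of the locus, beside 57.7% for loci in all 4 lists, 60.2% for loci with no empty vector peak and 56.0% for FLAG-only loci. The classes stood in the same order within coding sequences, with medians of 60.9, 58.1, 60.0 and 55.9%, and within 3′ UTRs, with 60.6, 56.1, 59.2 and 55.8%. In 5′ UTRs the members had a median of 72.2% and the loci with no empty vector peak 73.5%. The differences between medians are small beside the spread, since the quartiles of the members were 55.8 and 68.6%, and they were not tested.

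**Figure D5:**
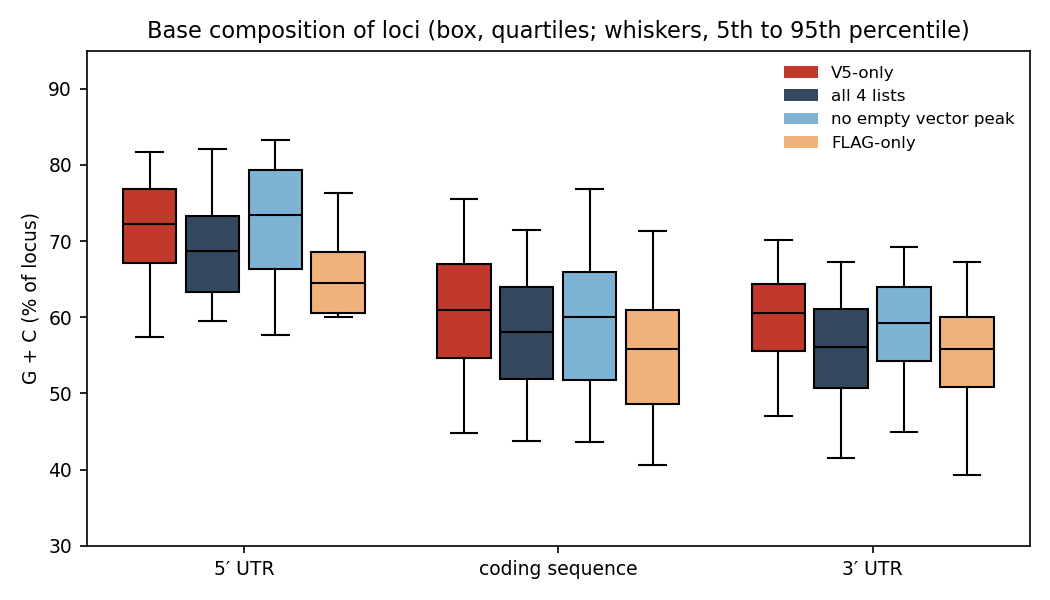
G + C content (% of the locus) of the 4 classes of loci by gene region; boxes are quartiles with the median as a line and whiskers run from the 5th to the 95th percentile. In 3′ UTRs the V5-only loci had a median of 60.6% and the loci in all 4 lists 56.1%, with boxes that overlap.

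The GU-loop:5nt-stem, a motif resembling the part of the guide RNA that Cas9 recognises, was called in 401 of 650 members, 61.7% (Wilson interval 57.9 to 65.4%). The share was 64.2% (60.4 to 67.9%) in loci in all 4 lists, 55.0% (52.0 to 58.0%) in loci with no empty vector peak and 59.2% (54.1 to 64.1%) in FLAG-only loci. It moved with the length of the locus: 19.6% of the 46 members under 50 nt and 78.1% of the 196 members of 150 nt or more held a call. Within members the share was 64.7% in 5′ UTRs, 55.4% in coding sequences and 72.0% in 3′ UTRs. The loci above show both cases, with calls in SNRPD1, TRIM28 and TRIB3 and none in RPLP0 or RPL14, which are both under 50 nt. A call is a prediction from sequence and describes these stretches only.

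Described by gene list, with no test, 209 members were in at least 1 of 14 lists set by gene symbol and 441 in none. Across all 1581 genes with a locus over both inputs, 32.1% held a member. The rule used the enrichments behind these counts. Of 37 genes for cytoplasmic ribosomal proteins, the building blocks of the ribosome, 24 (64.9%) held a member, with 40 loci, 32 of them in coding sequences and 7 in 5′ UTRs; median enrichments were 3.81 over the V5 input, 3.53 over the FLAG input and 3.57 over the empty vector IP. RPS28 had 5.21, 4.16 and 4.87 at a locus across its start codon, RPL22L1 5.64, 3.20 and 4.20, and RPL28 4.20, 4.44 and 3.49. Ribosomal protein genes have many processed pseudogenes, so their reads may be shared.

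Of 19 genes for translation factors and tRNA synthetases, 11 (57.9%) held 25 members, 23 of them coding. Beside EEF2 and EEF1A2, the 5′ UTR of AARS1, which charges tRNA with alanine, had 3.40 over the V5 input, 4.62 over the FLAG input and 3.46 over the empty vector IP. Histone genes, whose mRNAs are mostly short and without a poly(A) tail, had a member in 10 of 18 (55.6%), led by H4C2 with 5.23, 4.28 and 3.87 and H2AC6 with 4.29, 3.96 and 3.20. Histone copies are near-identical, so single genes are uncertain. Chaperones had 9 of 16 (56.3%), with DNAJC5 at 4.61, 4.78 and 4.09 and CCT2, a subunit of the chaperonin that folds actin and tubulin, at 4.88, 3.51 and 3.70.

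Cell cycle and replication genes had 12 of 20 (60.0%), including MCM5, a subunit of the replicative helicase, at 4.36, 3.74 and 3.98 and CDKN2AIP at 4.78, 3.97 and 3.52. Cytoskeleton genes had 7 of 12, with the dynein heavy chain DYNC1H1 at 4.33, 4.23 and 3.87. Splicing factors, hnRNPs and RNA helicases had 12 of 26 (46.2%), with DDX19B, a helicase of mRNA export, at 5.13, 4.19 and 4.22. Mitochondrial proteins had 14 of 34 (41.2%) and chromatin modifiers 8 of 18 (44.4%). SLC25A11, the mitochondrial oxoglutarate carrier, had 5.36, 4.30 and 4.85, and KDM5A, a histone demethylase, 3.50, 4.60 and 3.70.

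The lists below the share of all genes were, beside the p53 and stress targets given last, zinc finger genes with 4 of 29 (13.8%), vesicle traffic and small GTPases with 8 of 35 (22.9%), ubiquitin and proteasome genes with 12 of 48 (25.0%) and solute carriers with 7 of 25 (28.0%). The lists are small, and the shares of solute carriers and of p53 and stress targets lay near the 32.1% of all genes. None of these shares was tested. ZNF74 had 4.03, 3.76 and 3.34, AP3D1, of the AP-3 adaptor, 5.32, 4.60 and 3.03, and PSMA7, a proteasome subunit, 4.04, 4.29 and 3.15. Of the 11 solute carrier members 9 were in 3′ UTRs, against 1 of the 40 members of ribosomal protein genes. Several of the 9 lay in the same genes, SLC7A1 and SLC7A5, and so are not independent. SLC19A1, the reduced folate carrier, held the solute carrier member in a 5′ UTR, at 3.82, 4.08 and 4.73.

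The list named p53 and stress targets also includes the DNA fragmentation factor genes DFFA and DFFB. In it, 4 of 14 genes with a locus over both inputs (28.6%, near the 32.1% of all genes) held a member: DFFA, SESN2, BTG2 and ATF3. ATF3 had 1 member, in its 5′ UTR (chr1:212608773-212608894, plus strand), with 4.03 over the V5 input, 3.16 over the FLAG input and 3.85 over the V5 empty vector IP, beside 5 loci with a peak in all 4 lists. TRIM28 had 2 members and 5 loci in all 4 lists; the members had 4.99, 3.86 and 4.37 in the 5′ UTR and 3.46, 3.02 and 3.25 across the start codon. CDIP1, CDKN1A and AEN had no member, with 4, 6 and 7 loci in all 4 lists, and DFFB had none with 1. ACTB and GAPDH had no locus over both inputs.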

How the data were processed

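The 12 eCLIP libraries formed 6 groups of 2 replicates, taken from the sample labels. Reads were aligned by the authors to hg38 with the eCLIP pipeline 0.4.0 (cutadapt 1.14, STAR 2.4.0i, UMI-tools 1.0.0 and SAMtools 1.6 are named in the submitters' processing notes), and replicates were merged by the Irreproducible Discovery Rate. For each peak the authors deposited a log2 enrichment (IP over control reads, geometric mean over replicates) and a −log10 p. The lists hold no counts, so the depth is unknown; how the ratio was scaled for library size is not given in the sources used here. The lists start at a log2 of 3 and a −log10 p of 3.

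Peaks of the 4 lists within 10 nt on the same strand were merged (bedtools 2.31.1 gave the same 8501 loci). Members had a peak in both input lists and the V5 empty vector list and none in the FLAG empty vector list. Gene regions at the locus midpoint came from GENCODE 44 canonical transcripts, with the stop codon counted as coding sequence. The GU-loop:5nt-stem was called with RNAplfold of ViennaRNA 2.7.2 (window 70, 50 nt of genomic flank). Shares were compared by two-sided Fisher's exact tests (scipy 1.17.1, Python 3.11.15) with Benjamini-Hochberg adjustment over 9. The computations were tested on simulated data.

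The members, gene lists and tests were chosen with earlier results of these data known. Named were the 10 members highest over input (mean of V5 and FLAG), the 5 highest over the V5 empty vector IP and the 3 genes with most members. Members in a set of genes fixed by name were added, in ATF3, DFFA and TRIM28, of which the paper's main text names ATF3. Further named were up to 3 per gene list, 3 on either side of the threshold and the 3 nearest to a FLAG empty vector peak. The RPLP0 and RPL14 sequences were shown outside these rules. Alternatives changed the merging distance, the thresholds, the region rule and the motif thresholds.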

Additional observations from a re-analysis of the deposited data

How the results depend on the processing

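The number of V5-only loci was 660 when only touching peaks were merged and 643 with merging within 50 nt, and 625 without those within 100 nt of a FLAG empty vector peak. It was 633 where the 3 lists had to share 1 nt and 385 without genes holding a FLAG empty vector peak, settings that only remove loci. At a −log10 p of at least 5 in every list it was 421, and at a log2 of at least 4 in every list 111. These thresholds keep fewer peaks by construction, FLAG empty vector peaks included, so loci outside the 650 can enter. Only 410 of the 650 had a −log10 p of 5 or more over the V5 empty vector IP. Of the 79 named members, 65 overlapped a member at the −log10 p threshold and 9 at the log2 threshold. The 9 differences in gene region kept their direction and an adjusted p under the threshold with 1 locus per gene, any overlap with the region and both merging distances, and under 2 settings chosen after seeing the data (a −log10 p of at least 5, and no FLAG empty vector peak in the gene). The share of members with a called GU-loop:5nt-stem was 61.7% also with 100 nt of flank, 40.6% with a U pairing under 0.5, 24.5% with stem bases over 0.7 and 52.9% when only the V5 empty vector peaks were searched, so its level depends on these settings. No paired analysis was possible because the lists hold 1 value per peak for both replicates; for the same reason no replicate could be left out.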
